A study of Mus musculus with 6 samples.

Results

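Antiviral interferon-stimulated genes are genes that cells switch on when interferon reaches them. They are described here as 40 named genes, all 40 of which were found by symbol among the 26754 genes of the deposited tables. Type I interferon binds the receptor of Ifnar1 and Ifnar2, the kinases Jak1 and Tyk2 are activated, and Stat2 and Irf9 enter a factor that binds a GAAA-rich element before many of the genes. The products sense viral RNA, block its translation, degrade it, tag proteins with ISG15 or stop virions at membranes. In tumours the same genes are also used as a readout of interferon in tumour, myeloid and T cells. Which interferon acted in these tumours was not tested.

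The 6 libraries come from B16 melanoma tumours, from cells held by magnetic CD8a beads, which capture cytotoxic T cells through their co-receptor. They fall into day 14 and day 7 after 1000000 B16 cells were placed under the skin, with 3 libraries each. All mice were female C57BL/6J aged 6 to 8 weeks, with no other treatment or allele in the labels, and nothing says whether replicates came from separate mice, so p-values measure only the spread between these libraries. Levels are RPKM, reads per kilobase of gene and per 1000000 reads in genes.

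Libraries held 11385106 to 13316522 reads in genes on day 14 and 6523019 to 9313078 on day 7. A read was found in 18318 to 19053 genes on day 14 and in 13133 to 13806 on day 7. For a gene at or near 0 on day 7, absence and missed detection therefore cannot be told apart. The squared difference per gene, over that of read sampling alone, had a median of 4.05 to 4.43 for pairs of day 14 libraries. It was 1.11 for the first pair of day 7 replicates and 40.9 for day 7 replicate 1 with replicate 3. Replicates 1 and 2 of day 7, apart by little more than sampling, were averaged and counted as 1 sample, so n is 3 for day 14 and 2 for day 7, and day 7 replicate 3 stands apart. The 14 T cell markers summed to 147 to 156 RPKM on day 14 and 550 to 571 RPKM on day 7, the 10 macrophage markers to 298 to 309 RPKM and 140 to 200 RPKM, and the 7 melanocyte markers to 10410 to 11430 RPKM and 5672 to 5896 RPKM. Not all markers followed these sums. The macrophage marker Fcgr1 had 15.2 to 18.7 RPKM on day 14 and 19.4 to 31.7 RPKM on day 7. Adgre1 and C1qc were lower on day 14 than in day 7 replicates 1 and 2, but not throughout than in replicate 3. The melanocyte marker Mitf had 75.8 to 81.4 RPKM on day 14 and 79.6 to 90.6 RPKM on day 7. The 7 NK cell markers summed to 16.6 to 21.5 RPKM on day 14 and 136 to 186 RPKM on day 7. The 7 neutrophil markers summed to 50.2 to 65.3 RPKM and 12.7 to 17.4 RPKM. Most of that sum on day 14 was S100a9, at 39.2, 36.6 and 49.2 RPKM, against 6.25, 3.29 and 8.81 RPKM on day 7. S100a8 had 2.78, 5.39 and 5.19 RPKM on day 14, against 7.23, 6.81 and 1.77 RPKM on day 7. Ly6g, Mpo, Cxcr2 and Retnlg were at 0 in all day 7 libraries. Mpo was also at 0 on day 14, and Ly6g was above 0 there only in replicate 1, at 0.186 RPKM. Of the tested markers, 8 of 13 T cell genes and 4 of 4 NK cell genes fell, and 3 of 9 macrophage genes and 3 of 7 melanocyte genes rose. The bead-bound cells were thus no pure T cells by their RNA, since the melanocyte sum, most of it Dct, was above the T cell sum in every library. The part of this mixture in the results was not tested, and in bulk RNA fewer cells of a type and less RNA per cell cannot be told apart.

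The bases before the start of 3 genes that the results turn on, Isg15, Bst2 and Rsad2, and of Ifit1, which was chosen after its values were seen as a gene with the same element and no call, are shown because they carry the element that the interferon factor binds. The sequences are from RefSeq, build GRCm38.p6, and run 5′ to 3′ on the gene's strand up to the base before the RefSeq start site. That site can differ from the start of the deposited gene model, which for Ifit1 is at 34640871, inside the window. Capitals mark GAAA, any 2 bases and GAAA or, on the other strand, TTTC, any 2 bases and TTTC.
Isg15 (chr4:156200819-156201068, minus strand): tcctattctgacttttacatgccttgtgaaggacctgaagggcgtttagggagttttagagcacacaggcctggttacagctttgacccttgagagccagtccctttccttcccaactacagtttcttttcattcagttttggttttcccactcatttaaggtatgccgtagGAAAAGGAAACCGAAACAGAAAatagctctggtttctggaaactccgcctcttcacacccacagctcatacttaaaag
Bst2 (chr8:71537473-71537722, minus strand): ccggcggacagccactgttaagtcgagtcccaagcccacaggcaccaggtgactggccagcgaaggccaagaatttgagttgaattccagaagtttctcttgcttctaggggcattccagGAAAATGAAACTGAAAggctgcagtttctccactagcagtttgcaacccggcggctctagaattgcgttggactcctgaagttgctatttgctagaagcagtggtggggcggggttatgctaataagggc
Rsad2 (chr12:26456453-26456702, minus strand): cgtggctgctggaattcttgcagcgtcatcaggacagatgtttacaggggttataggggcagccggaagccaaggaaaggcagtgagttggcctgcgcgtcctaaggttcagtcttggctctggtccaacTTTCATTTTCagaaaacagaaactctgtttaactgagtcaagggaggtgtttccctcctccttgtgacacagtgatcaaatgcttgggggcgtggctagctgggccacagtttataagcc
Ifit1 (chr19:34640639-34640888, plus strand): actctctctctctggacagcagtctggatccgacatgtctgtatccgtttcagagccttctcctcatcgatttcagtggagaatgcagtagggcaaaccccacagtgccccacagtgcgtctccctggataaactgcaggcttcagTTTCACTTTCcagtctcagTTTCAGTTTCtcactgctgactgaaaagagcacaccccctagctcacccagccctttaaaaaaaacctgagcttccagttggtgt

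Isg15 had 3 overlapping matches on its own strand, the first starting 78 bases before the start site. Bst2 had 2 overlapping matches that began 130 and 124 bases before it. Rsad2 had 1 match on the other strand that began 120 bases before it, and Ifit1 had 2 there. A promoter entry was held for 29 of the 40 genes, and 10 of these 29 (34.5%) had a match on either strand in the 250 bases before a start, against 936 of 27025 genes (3.46%) in the whole promoter table. The other carriers were Ifit3, Oas1a, Oas1g, Oas3, Stat2 and Trim30a. Genes without an entry were Dhx58, Zbp1, Usp18, Oas2, Mx1, Mx2, Parp9, Parp14, Ifi27, Ifi27l2a and Rtp4. A match is a run of letters and was not shown to be bound. For 24 of the 33 member promoters the first 40 bases after the start were found in a transcript of the gene. Distances to the start thus hold for the RefSeq start site only.

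Of the 40 genes, 38 passed the filter of a mean of 20 reads per 1000000 (CPM) and were tested with limma on log2(RPKM + 1), with p-values adjusted by Benjamini-Hochberg over all 6691 genes that passed. On day 14, Zbp1, Isg15 and Bst2 fell, Rsad2 rose, and the other 34 tested genes gave no call at an adjusted p of 0.05, where 4.92% of all tested genes were called. That is 3 of 38 lower (7.89%), where 3.15% of all tested genes were called lower, and 1 of 38 higher, where 1.76% were. At an unadjusted p of 0.05, 9 of the 38 were lower and 2 higher, against 554 lower and 763 higher among all 6691. The median log2 fold change of the 38 was -0.31, from -1.71 for Zbp1 to 1.93 for Rsad2, beside a median of 0.16 over all tested genes. Fold changes are on the log2(RPKM + 1) scale, which understates those of low genes. Fits without day 7 replicate 3, or with it as the only day 7 sample, keep 1 day 7 sample. Their p-values hold no spread between day 7 samples.

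**Figure D1:**
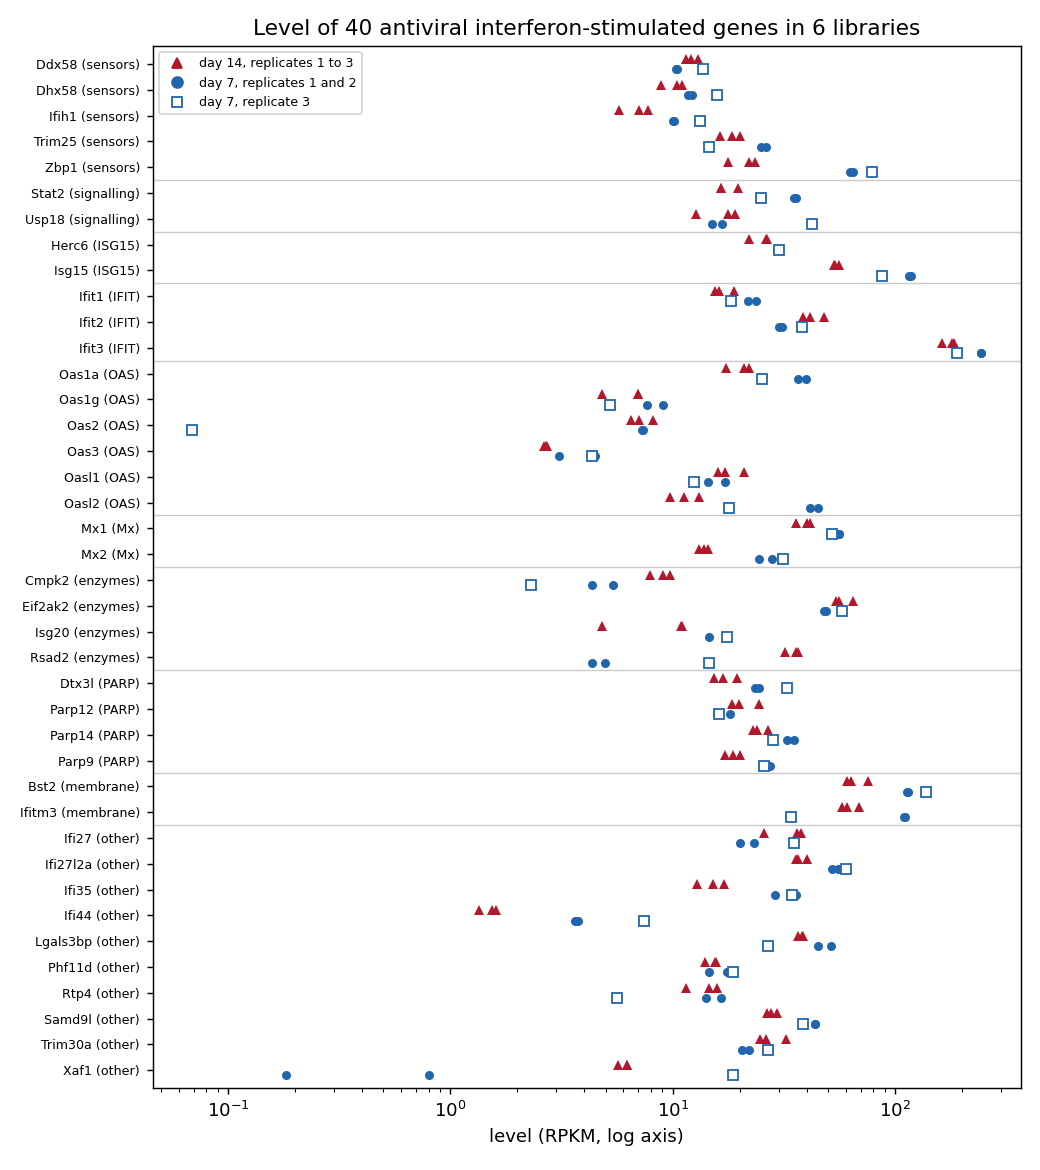
Level of each of the 40 genes (RPKM, log axis) in the 6 libraries, grouped by role, with day 14 as triangles above day 7, where circles are replicates 1 and 2 and the open square is replicate 3. The day 14 libraries lie close together, while Oas2 and Xaf1 have day 7 libraries far apart.

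The direction was more often downward than the calls show. In 20 of the 38 genes all day 14 libraries lay below all day 7 libraries (52.6%), a position held by 17.8% of all tested genes. In 4 of the 38, Rsad2, Cmpk2, Ifit2 and Parp12, all day 14 libraries lay above (10.5%), where 31.6% of all tested genes did. The remaining 14 overlapped. Day 7 replicates 1 and 2 agree within about the sampling noise, so these positions rest on fewer independent libraries than 6.

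Summed over the 40 genes, the level was 1059, 1087 and 1075 RPKM in the day 14 libraries and 1476, 1466 and 1357 RPKM in the day 7 libraries. The highest single level in both groups was that of Ifit3, at 176 ± 11 RPKM (SD, n = 3) on day 14 and 217 ± 38 RPKM (SD, n = 2) on day 7. Bst2 had the next highest mean in both, followed by Ifitm3 within its spread on day 14, and on day 7 by Isg15, at 102 ± 21 RPKM beside 126 ± 17 RPKM. The lowest was Ifi44 on day 14, at 1.35 to 1.61 RPKM, while on day 7 Oas2, at 3.71 ± 5.1 RPKM, Cmpk2, at 3.57 ± 1.8 RPKM, and Oas3, at 4.05 ± 0.40 RPKM, lay within each other's spread.

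Among the sensors, Zbp1 fell. It encodes a protein that binds Z-form nucleic acid and can start necroptosis, and it lies on chromosome 2, from 173206612 to 173218923 on the minus strand of GRCm38. Zbp1 had 17.7, 22.1 and 23.5 RPKM in day 14 libraries, against 62.9, 64.7 and 79.0 RPKM in day 7 libraries. Every day 14 library was below every day 7 library, and the days were far apart compared with the spread within either. On the log2 scale it fell by 1.71 (SE 0.26, limma adjusted p = 0.00317), and the mean on day 7 was 3.38 times that on day 14. The call was lost without day 7 replicate 3 (-1.56, adjusted p = 0.0545) and held with it as the only day 7 sample (-1.86, adjusted p = 0.0236).

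The RIG-I-like receptors, which recognise viral RNA in the cytosol, gave no call. Ifih1, which encodes MDA5, had 7.07, 5.73 and 7.73 RPKM in day 14 libraries, against 10.1, 10.0 and 13.3 RPKM in day 7 libraries. Dhx58, which encodes LGP2, had 10.4, 11.1 and 8.90 RPKM in day 14 libraries, against 12.3, 11.7 and 15.9 RPKM in day 7 libraries. In both genes the libraries of the days did not overlap, yet the limma adjusted p was 0.332 for Ifih1 and 0.550 for Dhx58. Ddx58, which encodes RIG-I itself, averaged 12.2 ± 0.75 RPKM on day 14 and 12.1 ± 2.4 RPKM on day 7, with a log2 fold change of 0.03 and a 95% interval of -0.68 to 0.74. Trim25, the ubiquitin ligase that acts on RIG-I, had 16.3, 18.4 and 20.2 RPKM in day 14 libraries, which lay between the 24.9 and 26.3 RPKM of day 7 replicates 1 and 2 and the 14.6 RPKM of replicate 3.

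Isg15 encodes the ubiquitin-like protein that is attached to other proteins after interferon, and lies on chromosome 4, from 156199424 to 156200818 on the minus strand. Isg15 had 55.9, 53.3 and 53.6 RPKM in day 14 libraries, against 119, 115 and 87.6 RPKM in day 7 libraries. The day 14 libraries were nearly equal, and the lowest day 7 library, replicate 3, was still above them. On the log2 scale it fell by 0.89 (SE 0.19, limma adjusted p = 0.0200), a day 7 mean of 1.88 times the day 14 mean. It kept its call without day 7 replicate 3 (-1.09, adjusted p = 0.0344) and lost it with replicate 3 as the only day 7 sample (-0.68, adjusted p = 0.275). Herc6, the ligase that attaches ISG15 in mice, had 21.9, 26.5 and 26.3 RPKM on day 14, against 29.5, 29.6 and 30.2 RPKM on day 7, without overlap and without a call (adjusted p = 0.673). Of the Herc6 exon bases 13.7% overlap the model Gm45193 on the same strand. Of the 100-base stretches of its longest transcript, 20.9% also occur in Gm45193, so the Herc6 level is uncertain.

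Of the signalling genes, neither was called. Stat2, a subunit of the interferon factor, had 19.6, 16.5 and 16.5 RPKM in day 14 libraries, against 35.9, 35.2 and 25.0 RPKM in day 7 libraries, all higher. Its log2 fold change was -0.74 with a 95% interval of -1.39 to -0.09 (limma adjusted p = 0.197). Usp18, which removes ISG15 from proteins and dampens the receptor, had 12.8, 17.8 and 19.1 RPKM on day 14 and 15.0, 16.7 and 42.2 RPKM on day 7. The day 14 values overlapped with day 7 replicates 1 and 2, and replicate 3 alone was high.

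**Figure D2:**
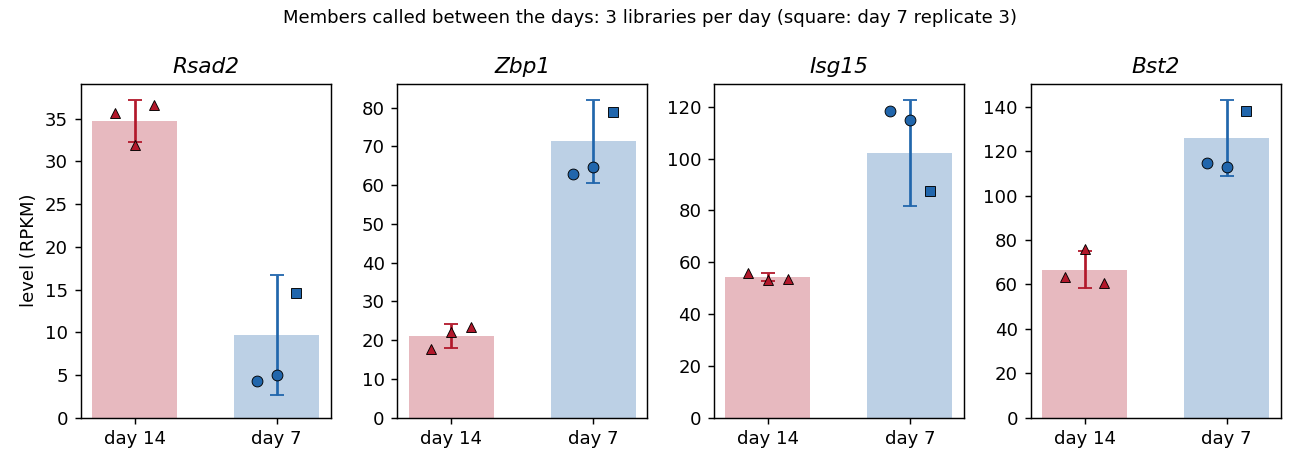
Level (RPKM) of the 4 called genes in each library, day 14 left of day 7; bars are means and error bars SD, with n = 3 for day 14 and n = 2 for day 7, where replicates 1 and 2 (circles) were averaged first and the square is replicate 3. Rsad2 is higher on day 14 (34.8 against 9.63 RPKM), and Zbp1, Isg15 and Bst2 are lower.

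The IFIT family binds viral RNA and keeps it from the ribosome. Its 3 genes lie on chromosome 19 and gave no call. Ifit3 had 183, 163 and 181 RPKM in day 14 libraries, against 244, 243 and 190 RPKM in day 7 libraries (log2 fold change -0.29, limma adjusted p = 0.343). Ifit1 averaged 16.8 ± 1.8 RPKM on day 14 and 20.6 ± 3.2 RPKM on day 7, and its libraries overlapped. Ifit2 went the other way, with 38.4, 48.0 and 41.3 RPKM on day 14, against 31.1, 30.0 and 38.3 RPKM on day 7, where the lowest day 14 library was just above the highest day 7 library. Of the 100-base stretches of the longest Ifit3 transcript, 31.7% also occur in Ifit3b, so the Ifit3 level is uncertain.

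The oligoadenylate synthetases make a short-lived signal that turns on RNase L, and the OAS-like proteins are their relatives. None of the 5 tested was called. Oasl2 had 9.71, 11.3 and 13.2 RPKM in day 14 libraries, against 41.4, 45.2 and 18.0 RPKM in day 7 libraries. The days did not overlap, but day 7 replicate 3 lay nearer to day 14 than to the other day 7 libraries. The estimate was -1.24 (SE 0.37, limma adjusted p = 0.0925), and without day 7 replicate 3 it was called, at -1.85 with an adjusted p of 0.0357. Oasl1, on chromosome 5 as well, had 17.1, 21.0 and 16.1 RPKM on day 14 and 17.2, 14.4 and 12.5 RPKM on day 7, with overlap.

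Oas2 had 6.49, 8.19 and 7.09 RPKM on day 14, against 7.30, 7.38 and 0.0689 RPKM on day 7. The first pair of day 7 libraries was at the day 14 level and replicate 3 near 0. The log2 fold change was 1.46 with a 95% interval of -0.07 to 2.99 (limma adjusted p = 0.275). It was -0.02 without that library and 2.94 with that library as the only day 7 sample. Oas1a, with 17.4, 20.9 and 22.0 RPKM on day 14 and 36.7, 39.9 and 25.2 RPKM on day 7, did not overlap between days (adjusted p = 0.308). Oas3 was low, with 2.68, 2.73 and 2.63 RPKM on day 14, against 4.47, 3.07 and 4.34 RPKM on day 7, without overlap or call (adjusted p = 0.603). Oas1g, under the filter at 15.1 CPM, ranged from 4.81 to 6.98 RPKM on day 14 and from 5.24 to 9.01 RPKM on day 7, and 38.2% of its 100-base stretches occur in Oas1a, so reads of these close copies can be split wrongly.

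The Mx genes belong to a family of dynamin-like GTPases, and both were lower on day 14 in every library without a call. Mx1 had 35.8, 41.5 and 40.3 RPKM on day 14, against 55.8, 55.7 and 52.3 RPKM on day 7 (log2 fold change -0.45, limma adjusted p = 0.308). Mx2 had 14.4, 13.8 and 13.1 RPKM on day 14, against 27.9, 24.5 and 31.2 RPKM on day 7 (-1.01, adjusted p = 0.0570). Mx2 was thus close to the threshold, with an interval of -1.59 to -0.42 and libraries of each day close together.

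Among the enzymes, Rsad2 was the only one of the 40 genes called higher. Rsad2 encodes viperin, a radical SAM enzyme that makes a chain-terminating nucleotide, and lies on chromosome 12, from 26442753 to 26456452 on the minus strand. Rsad2 had 35.7, 32.0 and 36.6 RPKM in day 14 libraries, against 4.35, 4.99 and 14.6 RPKM in day 7 libraries. All day 14 libraries were above all day 7 libraries, and day 7 replicate 3 was about 3 times the other day 7 libraries. On the log2 scale it rose by 1.93 (SE 0.42, limma adjusted p = 0.0252), with a day 14 mean of 3.61 times the day 7 mean. The call was lost without day 7 replicate 3 (2.66, adjusted p = 0.0599), with it as the only day 7 sample (1.20, adjusted p = 0.299) and with no CPM filter (1.93, adjusted p = 0.0830).

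Cmpk2, a mitochondrial nucleotide kinase that supplies the substrate of viperin, lies on the same stretch of chromosome 12 (26469204 to 26479835) and points away from Rsad2. Cmpk2 had 7.91, 9.73 and 9.04 RPKM in day 14 libraries, against 4.32, 5.37 and 2.30 RPKM in day 7 libraries. It was higher in every day 14 library, but gave no call (log2 fold change 1.17, 95% interval 0.02 to 2.31, limma adjusted p = 0.245). Within day 7 the neighbours differed, since replicate 3 was the highest day 7 library for Rsad2 and the lowest for Cmpk2. Eif2ak2, the kinase PKR that stops translation, averaged 58.4 ± 5.6 RPKM on day 14 and 53.2 ± 6.6 RPKM on day 7, with overlap. Isg20, an RNA exonuclease, had 10.9, 4.79 and 11.1 RPKM on day 14, against 14.6, 17.3 and 17.5 RPKM on day 7, and was the only one of the 38 whose day 14 libraries spanned more than a log2 unit.

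Parp9 and Dtx3l form an ADP-ribosylation and ubiquitin ligase pair, and Parp12 and Parp14 are relatives induced by interferon. None was called. Dtx3l had 16.9, 19.5 and 15.3 RPKM on day 14, against 24.4, 23.5 and 32.6 RPKM on day 7 (log2 fold change -0.67, limma adjusted p = 0.255). Parp9 had 17.2, 20.1 and 18.8 RPKM on day 14, against 25.4, 27.4 and 25.7 RPKM on day 7. As in Dtx3l, no day 14 library of Parp9 reached a day 7 library. Parp14 had 23.8, 26.8 and 23.1 RPKM on day 14, against 32.7, 35.0 and 28.3 RPKM on day 7, also apart. Parp12 lay above in every day 14 library, with 18.5, 19.9 and 24.5 RPKM on day 14, against 15.8, 18.2 and 16.1 RPKM on day 7 (adjusted p = 0.698). Parp9 and Dtx3l share 458 exon bases on opposite strands, and since the strand setting of the counting is not given in the sources used here, reads there cannot be told apart.

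Of the membrane factors, Bst2 fell. Bst2 encodes tetherin, which holds budding virions to the cell surface and also marks plasmacytoid dendritic cells, and lies on chromosome 8, from 71534255 to 71537456 on the minus strand. Bst2 had 63.1, 76.0 and 60.6 RPKM in day 14 libraries, against 115, 113 and 138 RPKM in day 7 libraries. The days were well apart, and on the log2 scale it fell by 0.91 (SE 0.21, limma adjusted p = 0.0346), a day 7 mean of 1.89 times the day 14 mean. Its call ended without day 7 replicate 3 (-0.77, adjusted p = 0.265), without day 14 replicate 1 (-0.88, adjusted p = 0.0654) and with day 7 replicate 3 as the only day 7 sample (-1.05, adjusted p = 0.120). The 6 plasmacytoid dendritic cell markers summed to 3.34 to 4.89 RPKM on day 14 and 2.10 to 17.3 RPKM on day 7. Siglech, a defining marker, had 0.675, 0.494 and 0.422 RPKM on day 14, against 5.04, 4.82 and 0 RPKM on day 7. Cox6a2 had 0.775, 0.234 and 0 RPKM on day 14. On day 7 it had at least 7.75 RPKM in replicates 1 and 2 and 0 in replicate 3. Tcf4, Spib, Klk1 and Ccr9 tended the other way, all at low levels. Tcf4 had 0.988, 1.15 and 1.09 RPKM on day 14, against 0.495, 0.510 and 0.750 RPKM on day 7. Spib had 0.613, 0.389 and 0.367 RPKM, against 0, 0 and 0.214 RPKM. Klk1 had 1.39, 2.22 and 1.12 RPKM, against 0, 0 and 1.14 RPKM. Ccr9 had 0.137 to 0.403 RPKM on day 14 and was at 0 in all day 7 libraries. Their part in the Bst2 result was not tested. Ifitm3, which blocks fusion of virions with endosomes, had 60.6, 58.0 and 68.6 RPKM on day 14, between the 110 and 111 RPKM of day 7 replicates 1 and 2 and the 33.9 RPKM of replicate 3.

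**Figure D3:**
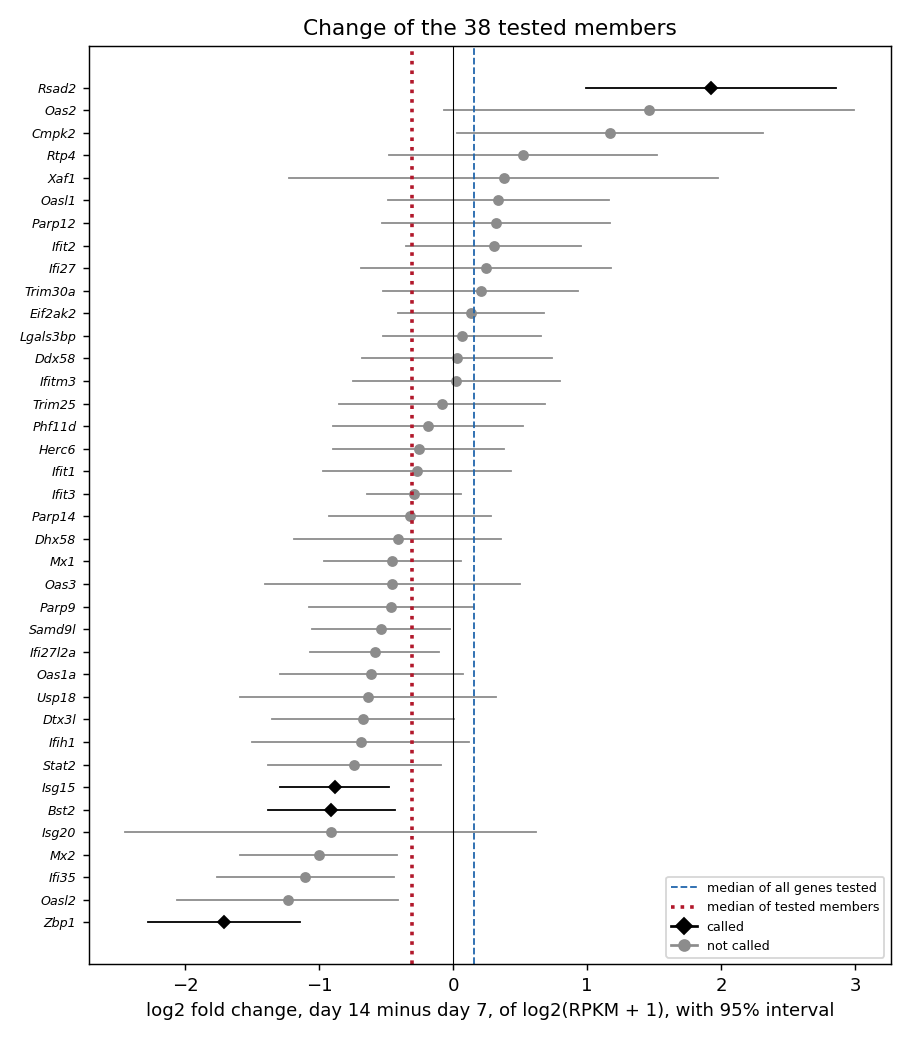
Log2 fold change (day 14 minus day 7, of log2(RPKM + 1)) of the 38 tested genes with 95% intervals; diamonds are called at an adjusted p of 0.05, the dotted line is their median (-0.31) and the dashed line the median of all 6691 tested genes (0.16). Zbp1 lies lowest (-1.71) and Rsad2 highest (1.93).

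The remaining 10 genes include adaptors, transporters and genes of less settled role, and none of the 9 tested was called. Ifi35 had 17.0, 12.9 and 15.2 RPKM on day 14, against 35.7, 29.0 and 34.3 RPKM on day 7, a change of similar size to those of Isg15 and Bst2 (log2 fold change -1.10, 95% interval -1.77 to -0.44, limma adjusted p = 0.0628). Of its exon bases 16.8% overlap a model on the other strand. Samd9l, a restriction factor of poxviruses, had 29.5, 27.7 and 26.7 RPKM on day 14, against 43.6, 43.6 and 38.7 RPKM on day 7. Ifi27l2a had 36.6, 35.9 and 40.1 RPKM on day 14, against 55.3, 51.9 and 60.3 RPKM on day 7, and in both genes the days stood apart. Ifi44, under the filter at 19.1 CPM and so untested, had 1.55, 1.61 and 1.35 RPKM on day 14, against 3.64, 3.75 and 7.40 RPKM on day 7. Ifi27, Lgals3bp, Phf11d, Rtp4 and Trim30a overlapped between days, with log2 fold changes from -0.19 for Phf11d to 0.52 for Rtp4. Lgals3bp averaged 37.9 ± 1.0 RPKM on day 14 and 37.7 ± 15 RPKM on day 7, and Ifi27 averaged 33.3 ± 6.6 RPKM and 28.4 ± 9.5 RPKM. Trim30a averaged 27.9 ± 4.0 RPKM on day 14 and 24.1 ± 3.8 RPKM on day 7. These spreads cover the differences between the days. Phf11d averaged 15.1 ± 0.93 RPKM on day 14 and 17.4 ± 1.9 RPKM on day 7, and Rtp4 averaged 14.0 ± 2.3 RPKM and 10.5 ± 6.8 RPKM.

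Xaf1, which binds the apoptosis inhibitor XIAP, had the largest gap between the day 7 samples. It stood at 5.66, 6.23 and 6.25 RPKM on day 14, against 0.803, 0.183 and 18.7 RPKM on day 7. Day 7 replicate 3 was above and the other day 7 libraries below every day 14 library, so the log2 fold change was 2.24 without that library (limma adjusted p = 0.0515), -1.48 with it as the only day 7 sample (adjusted p = 0.179) and 0.38 with both (adjusted p = 0.826).

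In all, 7 of the 38 tested genes (18.4%) differed by more than 1 log2 unit between the day 7 samples, beside 20.5% of all tested genes. Xaf1, Rsad2 and Usp18 were higher in replicate 3, and Oas2, Ifitm3, Rtp4 and Oasl2 were lower there, in both directions. In 9 of the 38 (23.7%), the day 14 mean lay between the day 7 samples, namely Ddx58, Trim25, Usp18, Oas2, Ifitm3, Ifi27, Xaf1, Rtp4 and Lgals3bp. The share was 35.0% among all tested genes. The direction of these 9 turns with the choice of day 7 sample. Calls from fits with 1 day 7 sample, as given next, hold no spread between day 7 samples. Without day 7 replicate 3, Isg15 and Oasl2 were the genes called, 2 lower and 0 higher, where 1.54% of all tested genes were called lower and 1.78% higher. With replicate 3 as the only day 7 sample, Zbp1 was called lower and Oas2 higher, where 1.49% of all tested genes were called lower and 0.655% higher.

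**Figure D4:**
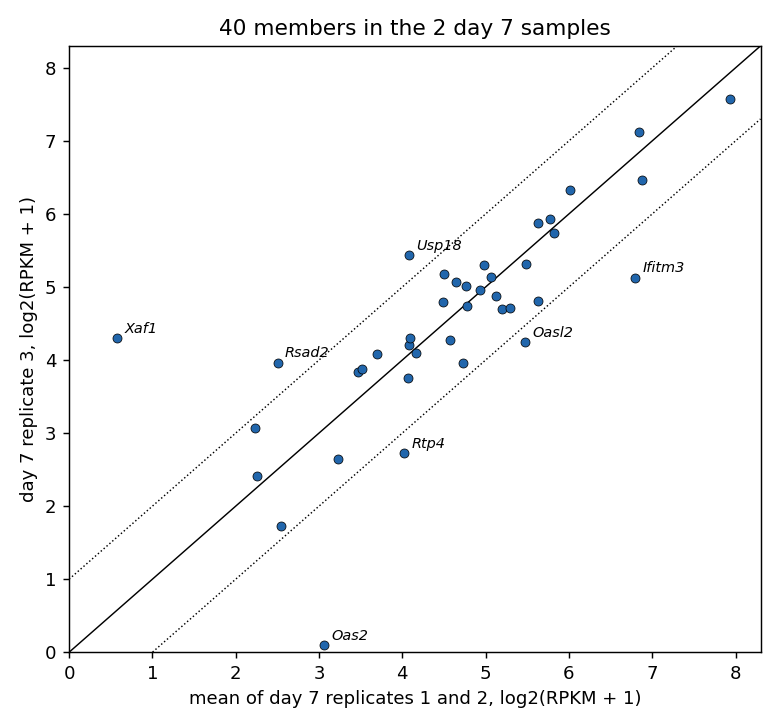
Level of the 40 genes in day 7 replicate 3 against the mean of day 7 replicates 1 and 2, both as log2(RPKM + 1); the solid line marks equality and the dotted lines 1 log2 unit on either side. The 7 named genes lie outside, Xaf1 (3.72 above) and Oas2 (2.96 below) farthest.

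Scaling to T cell transcripts raises nearly every gene, since the divisor was lower on day 14. The 12 T cell genes used for this summed to 106, 101 and 118 RPKM in day 14 libraries and 405, 386 and 387 RPKM in day 7 libraries. Divided by this sum, all 38 tested genes had a log2 fold change above 0 and 35 were called higher, where 93.9% of all tested genes were. The median of the 38 was 1.48, below the 1.85 of all tested genes, and 27 of the 38 lay under that value. Zbp1 stood at 0.09 with a 95% interval of -0.45 to 0.64, Bst2 at 0.93, Isg15 at 0.94 and Rsad2 at 3.63. Zbp1 was therefore the one of the 4 called genes whose level relative to T cell genes did not differ detectably between the days.

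The genes that make and relay type I interferon were taken from a list of 27 symbols, of which 22 were in the files and 12 were tested. Of these 12, 4 fell (33.3%) and none rose, where 3.15% of all tested genes were called lower and 1.76% higher. At an unadjusted p of 0.05, 5 of the 12 were lower and 0 higher, against 554 lower and 763 higher among all 6691. Irf7, the factor that amplifies interferon production, averaged 21.7 ± 1.0 RPKM on day 14 and 46.8 ± 2.9 RPKM on day 7 (log2 fold change -1.07, limma adjusted p = 0.0206). Tyk2, a kinase of the receptor, averaged 4.89 ± 0.27 RPKM and 14.8 ± 1.3 RPKM (-1.42, adjusted p = 0.0314), and Myd88, the adaptor of Toll-like receptors, averaged 8.08 ± 0.41 RPKM and 22.8 ± 11 RPKM (-1.31, adjusted p = 0.0470). Without day 7 replicate 3 the calls of Irf7, Tyk2 and Myd88 ended, with adjusted p of 0.147 for Irf7, 0.141 for Tyk2 and 0.467 for Myd88.

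The other parts of the receptor pathway gave no call. Ifnar1 averaged 8.95 ± 0.77 RPKM on day 14 and 9.84 ± 4.6 RPKM on day 7, and Ifnar2 averaged 19.7 ± 0.37 RPKM and 14.9 ± 7.6 RPKM. Jak1 averaged 23.1 ± 1.1 RPKM and 38.0 ± 1.7 RPKM (limma adjusted p = 0.140). Irf9, the DNA-binding subunit of the interferon factor, had 12.3, 10.5 and 12.4 RPKM in day 14 libraries, against 9.18, 8.85 and 8.28 RPKM in day 7 libraries, above them in every library while Stat2 was below (log2 fold change 0.40, adjusted p = 0.584). The interferon gene Ifnb1 was at 0 in every library except day 14 replicate 2, at 0.425 RPKM.

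Of 64 further interferon-stimulated gene symbols outside the 40, 60 were in the files and 49 tested. Among these, 3 fell (6.12%) and none rose, where 3.15% of all tested genes were called lower and 1.76% higher. At an unadjusted p of 0.05, 13 of the 49 were lower and 0 higher, against 554 lower and 763 higher among all 6691. The median log2 fold change was -0.35, beside 0.16 over all tested genes. Epsti1 averaged 89.2 ± 2.8 RPKM on day 14 and 222 ± 16 RPKM on day 7 (log2 fold change -1.31, limma adjusted p = 0.000357), and kept its call without day 7 replicate 3 (adjusted p = 0.00222). Ly6a, a surface antigen of activated T cells and other cells, averaged 16.7 ± 0.26 RPKM and 58.4 ± 42 RPKM, and Ifi206, of the DNA-binding p200 family, averaged 5.37 ± 0.37 RPKM and 17.1 ± 3.3 RPKM. Both lost their call without day 7 replicate 3, with adjusted p of 0.363 for Ly6a and 0.212 for Ifi206. In 26 of the 49 genes every day 14 library lay below every day 7 library (53.1%), close to the 52.6% of the 38. The share was 17.8% among all tested genes. This list too was chosen with earlier results of these data known.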

How the data were processed

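Values were deposited as RPKM, and the submitters' processing notes name GRCm38, Trimmomatic 0.36, Subread 1.5.1 and featureCounts. Aligner, strand setting and use of molecular identifiers were not given in the sources used here. Gene length is given per the file headers. Value times length gave whole reads for every gene within a tolerance of 0.001, so reads and CPM (reads per 1000000) could be recovered, and the number of molecules behind them is unknown. Of low read numbers, 75.6 to 87.7% were even, as when both mates of a pair are counted, so replicates were compared on reads divided by 2. Replicates 1 and 2 of day 7 agree to about sampling noise and count as 1 sample, their mean.

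limma 3.58.1 in R 4.3.3 was fitted to log2(RPKM + 1) for genes averaging at least 20 CPM in the 5 samples. Precision weights were the inverse of a loess curve of variance against mean, drawn for each day (span 0.3, floor 0.005), and moderation followed a trend. Calls are at a Benjamini-Hochberg adjusted p of 0.05. The fit was tested on simulated reads. A lone day 7 sample took the variance trend of both day 7 samples. Alternatives changed pseudocount, filter, scaling, weights, test, averaging, block and libraries. The naming rule gave library values for members called or without overlap between days, levels for the others, and, outside the members, up to 6 called genes a list plus Irf9, Irf7, Ifnar1, Ifnar2 and Jak1. Promoters shown are those of called members with a match. Ifit1's promoter, Ifnb1 and the genes under other observations were added after their values were seen. 1 called gene of the pathway list is not reported here. The members and lists were chosen with earlier results of these data known.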

Additional observations from a re-analysis of the deposited data

How the results depend on the processing

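Between the settings, the 4 called genes kept the direction of their change except under division by T cell genes, where Zbp1, Isg15 and Bst2 turned. With 3 lower and 1 higher call in the main setting, the 40 genes gave 5 lower and 0 higher with no CPM filter, 5 and 1 at 50 CPM, 5 and 1 with median-of-ratios scaling, 7 and 1 without weights, 15 and 2 by limma-voom on recovered reads, and 11 and 2 with 6 libraries counted singly. Over all tested genes, 1.31% were lower and 5.08% higher with no CPM filter, and 6.41% and 6.90% at 50 CPM. The shares were 4.45% and 0.882% with median-of-ratios scaling, and 6.13% and 8.98% without weights. By limma-voom they were 10.6% and 21.5%, and with single libraries 9.70% and 13.7%. All genes gave 329 calls in the main setting, 1450 with no CPM filter, 1011 without weights, 2145 by limma-voom and 1560 with single libraries, and 35.9% of the main calls were higher against 16.5% with median-of-ratios scaling and 79.5% with no CPM filter. That scaling moved the median of all genes to -0.015 and that of the 38 to -0.49. The median of the 38 was -0.39 at 50 CPM, -0.36 by limma-voom and -0.35 with single libraries. The pathway and further interferon-stimulated genes gave 7 calls in the main setting, 14 without weights, 22 by limma-voom and 23 with single libraries.

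Leaving out 1 replicate gave 224 to 338 calls over all genes, 0 to 1 higher and 2 to 5 lower among the 40, a median of -0.42 to -0.30, and 2 to 7 calls outside them, with the lowest count of all genes without day 7 replicate 3. With day 7 replicate 3 as the only day 7 sample, an alternative chosen after seeing the data, these were 144 calls over all genes, 1 higher (Oas2), 1 lower (Zbp1) and 3 outside. Without replicate 3 the calls were Isg15 and Oasl2. The cause of these moves was not tested.

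Same-numbered libraries did not deviate together (correlations -0.019, -0.013 and -0.036), so the numbers give no pairing. A replicate block with 6 libraries gave 1162 calls over all genes, 1 higher and 8 lower among the 40, a median of -0.35 and 17 calls outside. With that block, 9.22% of all tested genes were called higher and 8.17% lower.

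Divided by T cell genes, 6302 genes were called, 35 of the 40 higher and 0 lower, with a median of 1.48 and 53 calls outside. Log2 fold changes that turned were 1.04 for Stat2, 1.68 for Trim25, 1.30 for Dhx58, 0.67 for Ifi35, 1.23 for Ifi27l2a, 1.56 for Phf11d, 1.47 for Parp14, 1.10 for Dtx3l, 1.31 for Parp9, 1.36 for Mx1, 0.76 for Mx2, 1.55 for Ifit3, 1.49 for Ifit1, 0.98 for Ifih1, 0.094 for Zbp1, 0.94 for Isg15, 0.98 for Oas3, 1.17 for Oas1a, 1.26 for Samd9l, 1.53 for Herc6, 1.13 for Usp18, 0.93 for Bst2 and, without a call in either setting, 0.52 for Oasl2 and 0.79 for Isg20.

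Among genes with no call under either setting, the direction also turned under median-of-ratios scaling (-0.12 for Lgals3bp, -0.053 for Eif2ak2, -0.15 for Ddx58 and -0.16 for Ifitm3), by limma-voom (-0.095 for Lgals3bp and -0.41 for Ifitm3), with single libraries with or without the replicate block (-0.072 for Lgals3bp and -0.26 for Ifitm3) and with day 7 replicate 3 as the only day 7 sample (-1.48 for Xaf1, 0.30 for Trim25, -0.093 for Ifi27 and -0.16 for Ddx58). Leaving out 1 replicate gave log2 fold changes of -0.016 to 0.21 for Ddx58, -0.81 to 0.072 for Ifitm3, -0.35 to 0.11 for Lgals3bp, -0.020 to 1.53 for Oas2, -0.13 to 0.65 for Rtp4 and -0.75 to 0.041 for Usp18, which cross 0.

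The day 7 spread rests on 2 samples, and a lone day 7 sample was assumed to vary like both.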

Other observations

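These relatives of the 40 genes were chosen after their values were seen. Ifitm2, a relative of Ifitm3, had 8.85, 13.5 and 9.75 RPKM in day 14 libraries, and was listed at 0, 0 and 0.468 RPKM in day 7 libraries. Ifit1bl1, a relative of Ifit1, had 4.02, 3.57 and 5.61 RPKM on day 14, and on day 7 was listed at 0 in replicates 1 and 2 and at 10.9 RPKM in replicate 3, the same arrangement of libraries as for Xaf1. Both lay under the filter and were not tested. Fewer genes had a read in day 7 libraries, so a 0 there may be absence or missed detection. Phf11a, a relative of Phf11d, had 3.50, 4.35 and 6.99 RPKM on day 14 and 14.3, 14.4 and 18.8 RPKM on day 7, also untested.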
